A study of Homo sapiens with 18 samples.

Results

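The genes described here code for collagens, laminins, other proteins of the extracellular matrix, and the enzymes that cross-link and cut that matrix, in spheroidal aggregates of 2 brain tumour cell lines held in a direct current electric field (dcEF). Members were taken by name: collagen chains (COL), laminin chains (LAMA, LAMB, LAMC), matrix metalloproteinases (MMP), their tissue inhibitors (TIMP), ADAMTS proteases, the lysyl oxidase family (LOX), and FN1, TNC, SPARC, THBS1, THBS2, PLAU and PLAUR, each with at least 1 protein-coding transcript. The rule found 114 of 32490 gene names. Of these, 112 are matrix genes, and 2 matched by their letters only: COL4A3BP, a ceramide transfer protein, and MMP24-AS1, which is named as an antisense gene of MMP24.

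The established human lines were U87 mg, from a glioblastoma, and DAOY, from a medulloblastoma, so each tumour type is represented by 1 line. Aggregates of either line lay in channels in a mixture of medium and Matrigel, a mouse basement membrane extract, and were exposed to a dcEF of 250 V/m, lasting 2 h, 8 h or not applied (0 h), with 3 samples in each of the 6 groups. Channels kept for 2 or 8 h without a field were not analysed here, so field and time in the channel cannot be told apart. Each sample pooled 3 channels, and the study's methods call the samples biological replicates, of which those with the best quality control were kept. In such bulk RNA, fewer cells that make a transcript and less of it per cell cannot be told apart.

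Matrix is laid down as trimers of collagen or laminin chains that assemble inside the cell and are secreted. Fibrillar collagens form cables, collagen IV forms the sheet of basement membranes together with laminins, and collagen VI forms beaded filaments between them. Lysyl oxidases cross-link collagen. MMP and ADAMTS proteases cut matrix proteins, TIMPs block them, and urokinase (PLAU), held at the cell surface by its receptor PLAUR, activates plasminogen. In normal brain tissue fibrillar collagen is sparse outside vessels and meninges.

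Levels are given in TPM, the deposited abundance scale that accounts for transcript length, summed over the transcripts of a gene. Changes are log2 fold changes of the estimated counts of a gene (± SE) from edgeR's quasi-likelihood test. A gene was called at a Benjamini-Hochberg false discovery rate (FDR) below 0.05 together with a change of at least 2-fold, that is, 1 on the log2 scale. Estimated counts summed to between 8341976 and 15610886 a sample. Replicates varied more in DAOY, where edgeR's common biological variation was 0.256, than in U87 mg, where it was 0.18, so a given change was harder to call in DAOY. One library stood apart: in DAOY at 0 h replicate 0, GC-rich genes were low, with a slope of -0.44 log2 units per 10% of GC content against -0.25 to 0.28 in the other 17 libraries, and the members made up 0.979% of its TPM against 1.32 to 1.84% in the other DAOY libraries. For the DAOY field comparisons, the members that passed the FDR or an unadjusted p without it, and the changes of some members, are given below. The interaction and the lists of related genes are given with it only. At 0 h, leaving it out gave 65 of 96 members called between the lines, 37 higher and 28 lower in DAOY. Of all 16967 genes in that fit, 39.9% were called. VIM and CD44 were high in both lines, whereas the glial markers GFAP, S100B and OLIG2 reached at most 3.11 TPM in U87 mg. NES lay between 5.58 and 9.24 TPM in U87 mg and did not exceed 0.715 TPM in DAOY. SOX2 did not exceed 0.0858 TPM in U87 mg and lay between 2.93 and 6.92 TPM in DAOY. In DAOY, NEUROD1 did not exceed 0.176 TPM and PTCH1 lay between 6.07 and 11.6 TPM. ZIC1, OTX2 and MYCN had medians of 12.2, 1.8 and 0.58 TPM in DAOY and 6.48, 0 and 0 TPM in U87 mg. GLI1, GLI2 and TUBB3, also listed for medulloblastoma, went the other way. Their medians were 0, 1.05 and 14.5 TPM in DAOY and 2.99, 3.6 and 29.5 TPM in U87 mg. Of 4 leukocyte markers, PTPRC, CD3E and CD14 did not exceed 1.3 TPM, while CD68 lay between 247 and 602 TPM in U87 mg and 10.8 and 43.9 TPM in DAOY. Of 4 endothelial markers, CDH5 and VWF did not exceed 0.719 TPM, PECAM1 lay between 5.46 and 12.9 TPM in DAOY and KDR between 1.32 and 2.14 TPM in U87 mg. Of 4 epithelial markers, CDH1 did not exceed 0.419 TPM and EPCAM reached 2.44 TPM, in U87 mg. KRT5 and KRT14 reached 1.45 and 1.12 TPM in DAOY and did not exceed 0.0864 TPM in U87 mg. The part of such cells in the results was not tested.

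The starts of COL4A1 and COL4A2, the genes of the common collagen IV chains, are shown first because this pair had the largest line difference among the network collagens. In RefSeq (GRCh38.p14) COL4A1 on the minus strand and COL4A2 on the plus strand of chromosome 13 start 126 bases apart, facing away from each other. The stretch between them, chr13:110307158-110307283, is printed on the plus strand, with capitals for a CCAAT box (CCAAT) and a GC box (GGGCGG), each searched on both strands. In GENCODE 29, used for the other positions, COL4A1 (chr13:110148963-110307233) and COL4A2 (chr13:110305812-110513209) overlap at this end, so the stretch lies within the span of COL4A2 and partly within that of COL4A1.
COL4A1-COL4A2: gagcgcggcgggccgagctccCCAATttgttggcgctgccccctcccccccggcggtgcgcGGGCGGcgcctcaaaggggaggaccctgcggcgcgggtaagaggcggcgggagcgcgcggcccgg
It holds 1 of each, and 80.2% of its bases are G or C. Among 35116 RefSeq promoter windows of 250 bases before a start, 42.64% hold the GC box letters and 32.01% the CCAAT letters. The COL4A3 and COL4A4 starts are 418 bases apart and those of COL4A5 and the nearer COL4A6 start 379 bases apart, both longer than the windows used here.

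MMP7 and MMP10 belong to the run of MMP genes on chromosome 11, and their windows are shown because MMP7 differed between the lines while MMP10 did not pass the test. Windows of MMP1, MMP3, MMP12 and MMP13 were not used here. Both are on the minus strand of GRCh38.p14, at chr11:102530748-102530997 for MMP7 and chr11:102780629-102780878 for MMP10. Capitals mark the AP-1 motif TGAGTCA, the CCAAT box and the TATA motif TATAAA, searched on both strands.
MMP7: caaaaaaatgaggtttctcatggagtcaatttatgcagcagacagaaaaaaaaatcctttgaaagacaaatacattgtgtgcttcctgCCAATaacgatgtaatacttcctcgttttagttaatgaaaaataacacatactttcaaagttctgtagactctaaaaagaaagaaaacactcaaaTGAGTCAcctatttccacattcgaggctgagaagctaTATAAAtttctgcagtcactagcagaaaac
MMP10: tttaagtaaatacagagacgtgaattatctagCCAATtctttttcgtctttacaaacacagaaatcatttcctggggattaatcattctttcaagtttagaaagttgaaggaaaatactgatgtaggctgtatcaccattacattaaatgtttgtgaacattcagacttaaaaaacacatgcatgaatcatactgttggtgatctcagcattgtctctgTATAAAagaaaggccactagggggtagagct
Of all such windows, 4.2% hold the AP-1 letters and 10.72% the TATA letters. Windows were found for 77 of the 114 members, 96 windows in all, of which 4 hold the AP-1 letters and 15 the TATA letters.

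The first question is how the matrix genes of both lines compare before any field. Of the 114 members, 93 passed the filter on low counts in the fit of all 18 samples. At 0 h, 60 of them were called, 34 higher and 26 lower in DAOY, against 41.2% of all 16482 genes tested (23.4% higher and 17.8% lower). Members that are silent in one line pass the filter through the other, so the count was also taken among members with at least 10 counts in every sample: 34 of 59 were called, 13 higher and 21 lower, where 29.1% of all such genes were called. The median log2 difference was 0.38 over the members and 0.05 over all genes. All 60 members called at 0 h had the same sign at 2 h and 8 h, and 55 were called in the same direction at both. At 2 h and at 8 h, 64 of the 93 were called, against 41.4% and 41.9% of all genes. The TPM of the 9 U87 mg and the 9 DAOY samples did not overlap for 54 of the 93 members, against 36% of all genes tested.

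**Figure D1:**
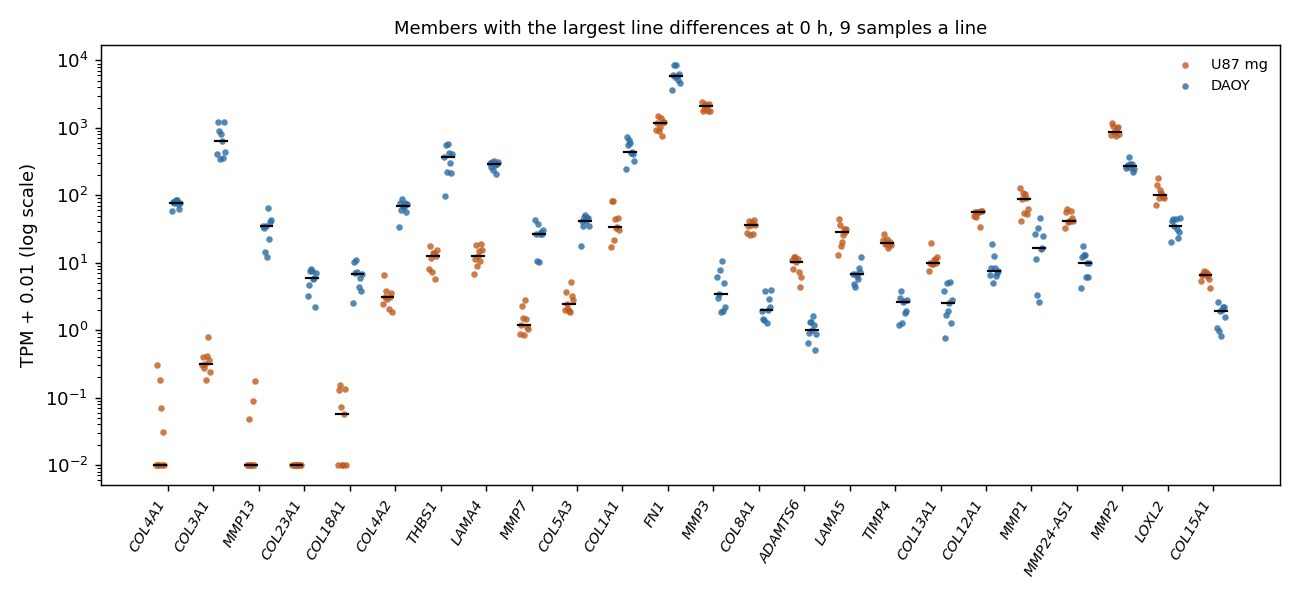
TPM of the 12 members with the largest line difference at 0 h in each direction, among those called with a mean of at least 5 TPM in the higher line. Each point is 1 of 9 samples a line, the bar is the median, and 0.01 was added for the log axis. From COL4A1 to FN1 the DAOY points lie above, and from MMP3 to COL15A1 the U87 mg points lie above, with some overlap in MMP1.

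Most of the fibrillar collagens tested were higher in DAOY at 0 h. Of 11 members, 10 were tested and 7 were called higher in DAOY, 1 lower and 2 in neither direction. Of all genes, 23.4% were called higher and 17.8% lower. Of the 7, COL3A1, COL11A2 and COL24A1 had at most 9, 4 and 3 counts in a U87 mg sample at 0 h. They passed the filter on low counts mainly through DAOY. COL3A1, the type III collagen chain, was measured at 404, 1203 and 903 TPM in DAOY at 0 h and at 0.298, 0.389 and 0.261 TPM in U87 mg. Over all times it ran from 348 to 1205 TPM in DAOY and did not exceed 0.779 TPM in U87 mg. Its log2 difference at 0 h was 11.43 ± 0.69 (FDR 3.43e-10). COL1A1 and COL1A2 form the type I trimer, and they differed unequally between the lines. COL1A1 was at 246, 732 and 551 TPM in DAOY and 16.9, 83 and 83.2 TPM in U87 mg, a log2 difference of 3.38 ± 0.46 (FDR 5.86e-06). COL1A2 was at 452, 868 and 807 TPM in DAOY and between 151 and 451 TPM over the U87 mg samples, and its log2 difference of 0.88 ± 0.28 (FDR 0.0102) was under 2-fold. Summed over transcripts, COL1A2 was above COL1A1 in each of the 9 U87 mg samples. In DAOY the ranges of both chains overlapped, at 246 to 732 and 445 to 868 TPM. These sums include a retained-intron transcript that held 67% of the COL1A2 TPM in DAOY and 67.1% in U87 mg. Among protein-coding transcripts, the leading one of COL1A1 had a mean of 461 TPM in DAOY and 30.8 TPM in U87 mg. The leading one of COL1A2 had 145 and 51.4 TPM. The type V chains COL5A1, COL5A2 and COL5A3, which join type I fibrils, were higher in DAOY by 1.52 ± 0.27, 1.73 ± 0.29 and 3.73 ± 0.35 on the log2 scale. COL11A1 went the other way, at 0.436 to 2.72 TPM in U87 mg at 0 h and at 0 counts in DAOY, at least 16-fold higher in U87 mg against a floor of 3 counts over the group.

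The network collagens divided by gene pair. COL4A1 was at 59.1, 80.7 and 77.7 TPM in DAOY at 0 h, and the 3 U87 mg libraries held 2 counts together against 9243 in DAOY. The ratio per read was 5865 (95% exact interval 1623 to 48430, counting error only). COL4A2, its partner, was at 34, 76 and 61.4 TPM in DAOY and at 2.43, 6.51 and 3.12 TPM in U87 mg, a log2 difference of 5.00 ± 0.25 (FDR 5.23e-11). U87 mg therefore had COL4A2 reads in every library with almost none of COL4A1. COL4A5 was at 12.2 to 24.5 TPM in DAOY at 0 h and 7.16 to 9.65 TPM in U87 mg, with a log2 difference of 0.87 ± 0.21 that was under 2-fold. COL4A6 did not pass the test at 0.47 ± 0.28, and COL4A3 and COL4A4 stayed at or under 0.519 TPM in both lines. An antisense gene overlaps COL4A2, and strand use in counting is not stated.

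Of the collagen VI chains and their relatives, 4 were tested at 0 h, all higher in DAOY, and 2 were called. Of all genes, 23.4% were called higher. COL6A1, COL6A2 and COL6A3, the 3 chains of the main trimer, were at 303 to 700, 213 to 394 and 241 to 373 TPM in DAOY at 0 h and at 75.6 to 194, 80 to 204 and 136 to 246 TPM in U87 mg. COL6A1 was called at a log2 difference of 1.85 ± 0.28 (FDR 2e-05). COL6A2 at 0.89 ± 0.29 (FDR 0.013) and COL6A3 at 0.66 ± 0.17 (FDR 0.00228) differed by less than 2-fold. COL6A6 was called higher in DAOY as well but did not exceed 1.56 TPM. It had 4 counts in the 3 U87 mg libraries at 0 h together, so it passed the filter mainly through DAOY.

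Among the other 22 collagens, 17 were tested, 8 called higher and 7 lower in DAOY, against 23.4% and 17.8% of all genes. Of the 8, COL14A1, COL18A1, COL19A1, COL23A1 and COL25A1 had at most 6 counts in a U87 mg sample at 0 h, and COL21A1 at most 10. Of the 7, COL17A1 and COL22A1 had at most 2 counts in a DAOY sample at 0 h. These members passed the filter on low counts mainly through the line where they were higher. COL23A1, a transmembrane collagen, had 0 counts in all 9 U87 mg libraries and 2.23 to 8.05 TPM in DAOY, at least 96-fold higher at 0 h against the floor of 3 counts. COL18A1, a basement membrane collagen, was at 2.54, 10.4 and 6.98 TPM in DAOY and at most 0.143 TPM in U87 mg. COL8A1, a short-chain collagen, was at 27.9, 34.9 and 41 TPM in U87 mg and 1.93, 1.47 and 1.42 TPM in DAOY, a log2 difference of -4.53 ± 0.34 (FDR 4.85e-09). COL12A1, which binds fibril surfaces, was lower in DAOY by -2.72 ± 0.35 (FDR 3.45e-06), COL13A1 by -2.98 ± 0.38 and COL15A1 by -1.94 ± 0.36.

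**Figure D2:**
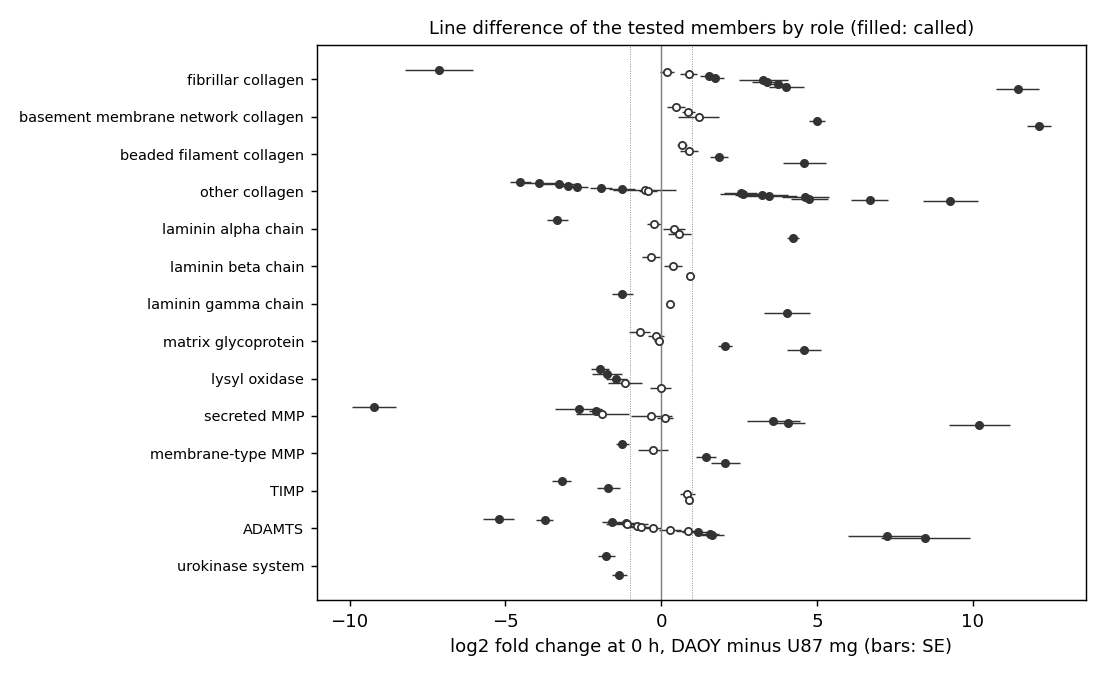
Log2 fold change at 0 h, DAOY minus U87 mg, of the tested matrix members in rows by role, with SE as bars, filled where called and dotted lines at 2-fold. Fibrillar, network and beaded filament collagens lie mostly to the right of 0. Lysyl oxidases and the urokinase system lie at or to the left of 0, where 3 of 5 and 2 of 2 were called, against 17.8% of all genes.

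Laminins assemble from 1 alpha, 1 beta and 1 gamma chain, and the lines differed most in the alpha chains. LAMB1 was at 194, 202 and 240 TPM in DAOY at 0 h and 96.2, 120 and 111 TPM in U87 mg, with a log2 difference of 0.92 ± 0.13 (FDR 9.86e-06). LAMC1 was at 241, 198 and 166 TPM in DAOY and 100, 138 and 120 TPM in U87 mg, without overlap. Its difference in counts of 0.27 ± 0.13 did not pass (FDR 0.0764). Over 16 alternatives it ran from 0.16 to 0.75, of which 5 passed the FDR and 0 were called. LAMA4, the alpha chain of vascular and mesenchymal laminins, was at 306, 259 and 308 TPM in DAOY and at 6.86, 11.3 and 18.2 TPM in U87 mg. Its log2 difference was 4.23 ± 0.21 (FDR 3.54e-11). LAMA5 went the other way, at 6.82, 4.8 and 4.32 TPM in DAOY and 12.8, 43.8 and 35.7 TPM in U87 mg, a difference of -3.34 ± 0.33 (FDR 1.51e-07). An antisense gene overlaps LAMA5. LAMA1, LAMA2 and LAMA3 stayed under 10 TPM in all samples and did not pass the test. LAMB2 and LAMB3 did not pass.

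Fibronectin (FN1), which binds integrins and collagen, was the highest member in DAOY, at 3673, 5998 and 8454 TPM at 0 h against 916, 1195 and 1515 TPM in U87 mg, a log2 difference of 2.04 ± 0.23 (FDR 6.57e-07). THBS1, the matricellular protein thrombospondin 1, was at 371, 98 and 561 TPM in DAOY and 8, 17.9 and 11.6 TPM in U87 mg, with a difference of 4.59 ± 0.55 (FDR 1.28e-06). THBS2 and TNC did not pass the test, and TNC, tenascin C, was high in both lines, at 322 to 549 TPM in U87 mg and 162 to 472 TPM in DAOY over all times. SPARC, which binds collagen, depended on the scale. Its TPM was 794, 1328 and 1015 in DAOY and 441, 648 and 561 in U87 mg, but its counts gave a log2 difference of -0.09 ± 0.14 (FDR 0.622). The same retained-intron transcript led in both lines, with 66.8% of the SPARC TPM in DAOY and 55% in U87 mg, while one protein-coding transcript had 3.69% and 44.4%. With protein-coding transcripts only, the log2 difference was -1.8 and SPARC was called lower in DAOY, whereas limma on the TPM scale gave up to 0.91, higher in DAOY.

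The lysyl oxidase family was lower or level in DAOY at 0 h, while at 2 h 1 member was called higher and 3 lower. LOX, LOXL2 and LOXL3 were called lower, by -1.75 ± 0.47, -1.96 ± 0.28 and -1.44 ± 0.35 on the log2 scale. LOX was at 86, 69.5 and 53.7 TPM in DAOY at 0 h and 169, 181 and 322 TPM in U87 mg. LOXL1 did not differ detectably, at -0.02 ± 0.34 (FDR 0.967). Its sign depended on the fit, from -0.36 to 0.38 over 16 alternatives, of which 5 kept the sign and 0 passed the FDR.

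Secreted MMPs showed the sharpest contrast among the proteases. MMP3, stromelysin 1, which cuts many matrix proteins and other pro-MMPs, was at 2440, 1761 and 1901 TPM in U87 mg at 0 h and 6.15, 2.96 and 3.48 TPM in DAOY. Its log2 difference was -9.22 ± 0.71 (FDR 6.75e-09), and MMP3 was the second highest member in U87 mg by mean TPM. MMP13, collagenase 3, was the reverse, at 34.9, 32.3 and 14.6 TPM in DAOY with 1 count in the 3 U87 mg libraries together against 1414 in DAOY. The ratio per read was 1794 (95% exact interval 322 to 70920, counting error only). MMP7, matrilysin, was at 43.5, 26.2 and 10.7 TPM in DAOY and 0.876, 1.2 and 2.27 TPM in U87 mg, a difference of 4.06 ± 0.57 (FDR 8.85e-06). MMP1, interstitial collagenase, was lower in DAOY by -2.65 ± 0.75 (FDR 0.00542), at 26.6, 11.5 and 3.28 TPM against 126, 41.5 and 87.3 TPM, and its DAOY samples spread widely.

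These genes lie in one run on chromosome 11, all on the minus strand, in GENCODE 29 (GRCh38) from MMP7 at chr11:102520508-102530753 through MMP20, MMP8, MMP10, MMP1, MMP3 and MMP12 to MMP13 at chr11:102942995-102955734. In U87 mg the run was led by MMP3, and its first and last genes did not exceed 2.78 TPM. In DAOY the first and last genes, MMP7 and MMP13, were the highest by median. MMP12 and MMP10 did not pass the test of the line difference (FDR 0.698 and 0.0659). MMP8 and MMP20 stayed at or under 0.699 TPM in both lines.

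**Figure D3:**
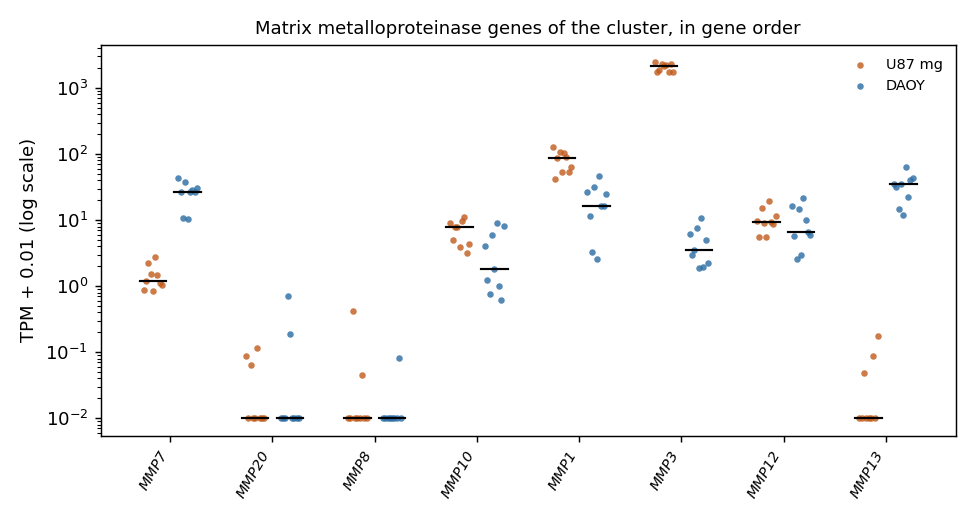
TPM (with 0.01 added, log axis) of the 8 measured MMP genes of the chromosome 11 run, in their order along the chromosome, in 9 samples a line with the median as a bar. MMP3 is high in U87 mg only, while MMP7 and MMP13 are high in DAOY only, and MMP10 and MMP12 overlap.

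Outside this run, MMP2, gelatinase A, was at 794, 1192 and 1084 TPM in U87 mg at 0 h and 256, 275 and 285 TPM in DAOY, lower in DAOY by -2.11 ± 0.22 (FDR 2.33e-07). MMP14, the membrane-type MMP that activates pro-MMP2, had the opposite direction, at 242, 398 and 245 TPM in DAOY and 80.5, 132 and 119 TPM in U87 mg, a difference of 1.43 ± 0.31 (FDR 0.000782). TIMP2, which takes part in that activation, was at 205, 256 and 222 TPM in DAOY and 103, 116 and 135 TPM in U87 mg, and differed by 0.89 ± 0.13 (FDR 1.53e-05). MMP9, gelatinase B, did not exceed 0.18 TPM in U87 mg and lay between 0.702 and 8.32 TPM in DAOY. Of the inhibitors, TIMP1 was the highest member in U87 mg, at 1837, 2095 and 3508 TPM against 314, 879 and 1163 TPM in DAOY, lower there by -1.70 ± 0.37 (FDR 0.000642). TIMP4 was lower in DAOY by -3.20 ± 0.30, and TIMP3 was higher by 0.83 ± 0.24, under 2-fold.

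Among the 19 ADAMTS genes, 15 were tested, 5 called higher and 4 lower in DAOY, against 23.4% and 17.8% of all genes. Of the 5, ADAMTS10 and ADAMTS15 had 0 counts in U87 mg at 0 h, and ADAMTS13 at most 8 in a sample. Of the 4, ADAMTS18 had at most 3 counts in a DAOY sample at 0 h. These members passed the filter on low counts mainly through the line where they were higher. ADAMTS13 was called in only 4 of 14 alternatives. ADAMTS6 was at 10.9, 7.96 and 12.1 TPM in U87 mg and 0.631, 0.906 and 1.31 TPM in DAOY, a difference of -3.74 ± 0.27 (FDR 2.67e-09). ADAMTS1 and ADAMTS5, which cut the proteoglycans aggrecan and versican, were both called lower in DAOY, by -1.58 ± 0.32 and -1.14 ± 0.31, and ADAMTS9 was called higher, by 1.56 ± 0.29. PLAU and PLAUR were both lower in DAOY, by -1.35 ± 0.25 (FDR 0.000169) and -1.77 ± 0.27 (FDR 2.64e-05). PLAU was at 119, 82.3 and 120 TPM in DAOY and 176, 303 and 230 TPM in U87 mg.

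Other genes of the same processes were given as lists, to be read against the 41.2% of all genes called at 0 h (23.4% higher and 17.8% lower). Of 23 genes for collagen processing, 22 were tested, with 7 called higher and 6 lower in DAOY at 0 h. Of 29 other matrix glycoproteins and proteoglycans, 26 were tested, with 13 higher and 5 lower. Of 17 genes of the plasminogen system and protease control, 16 were tested, with 3 higher and 6 lower.

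The second question is whether these genes changed in the field. In U87 mg at 2 h, 0 of 74 members tested were called, where 0% of all 14106 genes were called, and 0 members reached an unadjusted p below 0.05 by edgeR, against 8.78% of all genes. DESeq2 called 0 members as well. The median log2 change was -0.16 over the members and -0.02 over all genes. The smallest p-values belonged to MMP15, LOXL1 and PLAU among negative changes, at -1.12 ± 0.54, -0.66 ± 0.32 and -0.43 ± 0.21, and to COL4A3BP, MMP16 and COL10A1 among positive ones, at 0.29 ± 0.14, 0.21 ± 0.19 and 0.48 ± 0.46. Leaving out U87 mg 0 h replicate 0, whose GC-rich genes were low with a slope of -0.23, gave 2 calls, COL1A1 at -1.19 and LOXL1 at -1.01 on the log2 scale. It also took the members past the FDR alone from 0 to 11, against 8.38% of all genes in that fit. Of these, 10 were lower at 2 h, COL1A1, COL6A1, COL6A2, COL7A1, COL16A1, LAMA5, LAMB2, LAMB3, LOXL1 and LOXL2, and COL4A3BP was higher. The result for U87 mg at 2 h therefore rests on this library.

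In U87 mg at 8 h, 0 of 74 members were called, against 0.638% of all genes, and 6 members had an unadjusted p below 0.05, all lower, against 15.9% of all genes at that p (6.95% lower). DESeq2 called 1 member, ADAMTS5. The 6 were ADAMTS1, ADAMTS5, ADAMTS6, ADAMTS9, ADAMTS18 and COL1A2. ADAMTS5 was at 23.9, 12.6 and 11.8 TPM at 0 h and 8.56, 7.92 and 5.94 TPM at 8 h. All 8 h samples lay below all 0 h samples, and the log2 change of -1.04 ± 0.25 did not pass (FDR 0.0636). ADAMTS6 changed by -0.76 ± 0.23 (FDR 0.124) and ADAMTS18 by -0.89 ± 0.28 (FDR 0.139). COL1A2 changed by -0.64 ± 0.26. Without U87 mg 0 h replicate 0, 5 members passed the FDR alone, all lower and none by 2-fold, against 5.2% of all genes: ADAMTS5, at -0.6, COL1A2, COL5A1, LAMA5 and LOXL2. The smallest p-values among positive changes belonged to LAMA4, ADAMTS12 and LAMB1, none of which passed.

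**Figure D4:**
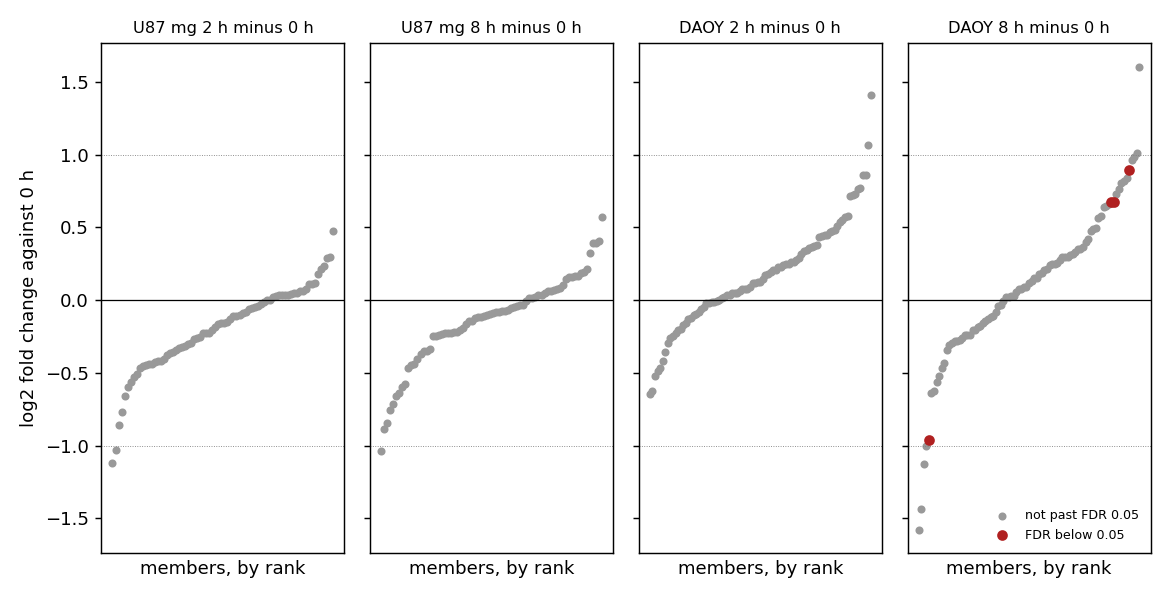
Log2 fold change against 0 h of each tested member, ordered by size, in the 4 comparisons, with dotted lines at 2-fold. Red marks an FDR below 0.05, which 4 members reach in DAOY at 8 h and 0 in the other 3 comparisons.

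In DAOY at 2 h, 0 of 87 members were called, where 0% of all 15396 genes were called, and DESeq2 called 0 too. An unadjusted p below 0.05 was reached by 6 members, all higher, against 2.75% of all genes (1.38% higher): COL7A1, LAMA5, COL27A1, COL5A3, COL6A2 and ADAMTS7. Their median GC content was 65.3%, against 53.6% over the members tested and 47.4% over all genes tested. After a GC trend was removed from each library 1 member, COL7A1, was left below that p. Without DAOY 0 h replicate 0, COL7A1, LAMA5 and COL27A1 stayed below it, ADAMTS12, MMP9 and MMP12 came below it, all higher, and COL5A3, COL6A2 and ADAMTS7 did not. Among negative changes the smallest p-values were in COL6A6, MMP16 and ADAMTS3, at -0.65 ± 0.45, -0.26 ± 0.21 and -0.36 ± 0.32.

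In DAOY at 8 h, 0 of 87 members were called, against 3.13% of all genes, while 4 members reached the FDR alone, against 5.85% of all genes. LAMB1, the common laminin beta chain, rose from 194, 202 and 240 TPM to 293, 379 and 320 TPM, a log2 change of 0.67 ± 0.13 (FDR 0.0222), with no overlap between the groups. COL7A1, the anchoring fibril collagen, rose by 0.89 ± 0.19 (FDR 0.0269), at 35.8, 75.3 and 49.1 TPM and then 97.4, 85.8 and 70.5 TPM, with overlapping TPM. COL27A1, a fibrillar collagen, rose by 0.68 ± 0.16 (FDR 0.0379), from 3.02, 3.32 and 4 TPM to 7.72, 5.64 and 6.24 TPM. PLAU fell from 119, 82.3 and 120 TPM to 64, 37.2 and 43.9 TPM, by -0.96 ± 0.25 on the log2 scale (FDR 0.0499). Without DAOY 0 h replicate 0, 4 members passed the FDR, all higher, against 5.4% of all genes: LAMB1, COL27A1, ADAMTS12, at 0.71 ± 0.17 (FDR 0.0439), and COL8A1, called at 1.52. COL7A1 and PLAU did not. After removal of the GC trend COL27A1 did not pass, at 0.52 ± 0.25 (FDR 0.196), while LAMB1, COL7A1 and PLAU did. With each library left out in turn, the FDR ran from 0.0281 to 0.0919 for LAMB1, 0.0197 to 0.0798 for COL7A1, 0.0426 to 0.133 for COL27A1 and 0.0386 to 0.185 for PLAU.

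Among the ADAMTS genes in DAOY at 8 h, none passed, and the smallest FDRs were those of ADAMTS1, ADAMTS5 and ADAMTS3. ADAMTS1 was at 9.71, 11.6 and 18.2 TPM at 0 h and 3.88, 4.86 and 5.22 TPM at 8 h, a change of -1.44 ± 0.40 (FDR 0.0584). ADAMTS5 was at 7.94, 6.23 and 8.56 TPM and then 2.92, 3.02 and 5.14 TPM, a change of -1.0 ± 0.29 (FDR 0.0727). In both genes all 8 h samples lay below all 0 h samples. These genes were named for small p-values in the same samples, so the separation is no further support, here or in U87 mg. How many of all genes separate in this way was not counted. Without DAOY 0 h replicate 0 the changes were -1.53 ± 0.44 (FDR 0.0762) for ADAMTS1 and -0.85 ± 0.32 (FDR 0.139) for ADAMTS5. ADAMTS3 changed by -1.13 ± 0.34 (FDR 0.0767), and ADAMTS12 went the other way, at 0.33 ± 0.25 (FDR 0.483). They lie near each other on the minus strand of chromosome 21, ADAMTS1 at chr21:26835747-26845409 and ADAMTS5 at chr21:26917912-26966513 (GENCODE 29, GRCh38). DESeq2 called ADAMTS1 only, and the fit of all 18 samples called ADAMTS1, ADAMTS3 and ADAMTS5. In U87 mg, ADAMTS1 changed by -0.44 ± 0.17 (FDR 0.217) at 8 h and ADAMTS9 by -0.84 ± 0.30 (FDR 0.19), while in DAOY ADAMTS9 changed by -0.64 ± 0.27 (FDR 0.191). These 2 comparisons share no samples, but none of these ADAMTS1 and ADAMTS9 changes passed the FDR in either.

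**Figure D5:**
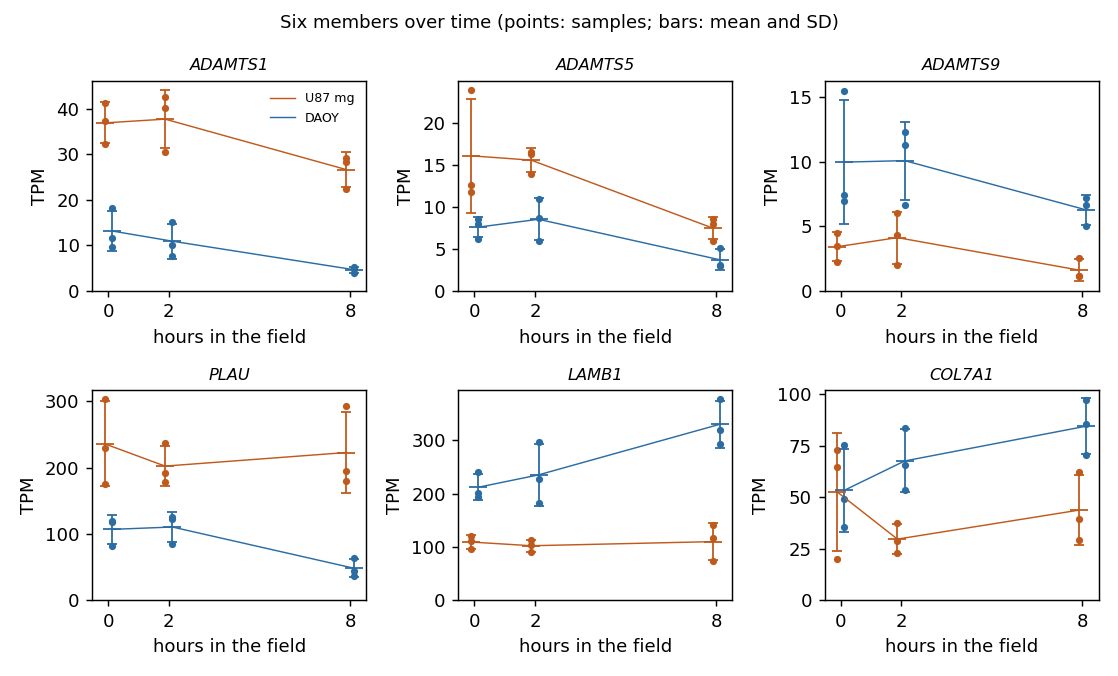
TPM of 6 members at 0, 2 and 8 h in the field in both lines, with points for samples and bars for mean and SD (n = 3). ADAMTS1 and ADAMTS5 at 8 h lie below every 0 h sample in both lines, though neither passed the FDR in either line. LAMB1 and PLAU at 8 h are apart from 0 h in DAOY only.

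The MMPs and TIMPs gave no call in any field comparison. TIMP3 in DAOY at 8 h passed the FDR alone with DESeq2, after removal of the GC trend and with no filter on low counts. It did not pass in the edgeR fit used here. Without DAOY 0 h replicate 0, TIMP3 changed by 0.75 ± 0.26 (FDR 0.118). MMP1, MMP2, MMP9, MMP14, PLAUR and TIMP2 changed at 8 h in DAOY by 0.47 ± 0.86, 0.02 ± 0.21, 1.61 ± 0.71, 0.25 ± 0.34, 0.31 ± 0.22 and 0.18 ± 0.15 on the log2 scale. The smallest FDR among these 6 was 0.207, in MMP9. Without DAOY 0 h replicate 0 the 6 changes were 1.51 ± 0.93, -0.14 ± 0.2, 2.15 ± 0.83, 0.2 ± 0.39, 0.35 ± 0.25 and 0.21 ± 0.16. The smallest FDR was then 0.153, again in MMP9. In U87 mg, MMP1, MMP2, MMP14, PLAUR and TIMP2 changed by -0.22 ± 0.37, 0.00 ± 0.20, -0.22 ± 0.23, -0.04 ± 0.26 and 0.02 ± 0.12, and MMP9 was too low to test. The SE was smallest for TIMP2 and largest for MMP1, so a change in MMP1 or MMP9 was hardest to detect.

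The 8 h change differed between the lines for 0 of 93 members at an FDR below 0.05, against 0.0121% of all genes, and for 10 members at an unadjusted p below 0.05, against 8.88%. DESeq2 gave 0 members. COL7A1 had the smallest p, with a difference of 1.26 ± 0.42 (FDR 0.323). PLAU, which reached the FDR in DAOY and changed by -0.08 ± 0.21 in U87 mg, had a difference of -0.87 ± 0.35 that did not pass (FDR 0.446). For LAMB1 it was 0.49 ± 0.18 (FDR 0.388). In the lists of related genes, the matrix glycoproteins and proteoglycans had 3 of 26 tested genes called in DAOY at 8 h, against 3.13% of all genes. CYR61 and TNXB were higher, by 2.02 ± 0.29 and 2.62 ± 0.58, and CTGF lower, by -1.10 ± 0.28. The other lists had 0 calls in all 4 field comparisons.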

How the data were processed

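RNA-SEQ of 18 samples was analysed. The authors trimmed single-end reads, assigned them with kallisto 0.43.0 (genome build GRCh38.p5) and deposited, for each transcript and sample, an estimated count and a TPM value. The authors' table also holds their sleuth 0.28.1 p-values and fold changes, which were not used. Whether strand was used is not given in the sources used here.

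Estimated counts were summed by gene name and rounded. Genes were filtered with filterByExpr, scaled by TMM and tested with edgeR 4.0.16 (glmQLFit, glmQLFTest) in R 4.3.3, over the 9 samples of a line for 0, 2 and 8 h and over all 18 for line differences and the interaction, with FDR over all genes tested. Alternatives used DESeq2 1.42.0 and limma 3.58.1. Intervals and the floor of 3 counts cover counting error only. Fits were tested on simulated data. Positions came from GENCODE 29, promoters from RefSeq. Counts of ADAMTS7 and MMP23B, which have near-identical copies, are uncertain.

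The members and lists were chosen with earlier results of these data known. Members are named if called, if past the FDR, if among the 3 smallest p-values in each direction of a field comparison with fewer than 6 such, if among the 12 largest line differences in each direction, if among the 10 highest in a line, or if on the study's qRT-PCR lists or chains of a trimer. Others named (COL5A1 to COL5A3, COL11A1, ADAMTS9 and the like) were chosen after their values were seen.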

Additional observations from a re-analysis of the deposited data

How the results depend on the processing

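Limits are the 3 samples a group and the lack of time-matched channels without a field. The 60 members called between the lines at 0 h kept their direction under every alternative that tested them, and 44 were called in all of these, with limma on log2(TPM + 1) the most frequent exception. The least stable were ADAMTS13, called in 4 of 14, COL4A3BP in 10 of 16 and COL16A1 in 11 of 16. ADAMTS5 was called in 13 of 16 and COL6A6 in 14 of 15. Of the 33 members not called, 24 were called in no alternative. MMP10 was called lower in 5 of 15, among them the removal of the GC trend (-2.14, FDR 0.032), COL6A2 higher in 5, COL4A5 in 3 and COL1A2 in 2 of 16. Counts of members called in the line comparisons fell to 34, 37 and 39 at 0, 2 and 8 h when at least 10 counts were required in every sample, by construction since only 59 members were left, and ran from 58 to 65, 59 to 66 and 61 to 66 with 1 replicate left out. In U87 mg, leaving out 1 replicate gave 0 to 2 calls at 2 h and 0 to 0 at 8 h, and at 8 h DESeq2, no filter and the removal of a GC trend (added after seeing the data) gave 1 call each. In DAOY at 8 h, calls numbered 1 with DESeq2, 2 with no filter, 2 with limma on log2(TPM + 1), 1 after removal of the GC trend, 3 with all 18 samples in one fit, 4 by the FDR alone, and 0 to 2 with 1 replicate left out (2 without DAOY 0 h replicate 1: COL7A1 and PLAU). The interaction gave 1 member, COL7A1, with no filter. The cause was not tested. Values that changed sign, none of them called, were MMP16 in U87 mg at 2 h (-0.0898 after removal of the GC trend) and, with limma on log2(TPM + 1) and log2(TPM + 0.1), ADAMTS12 (-0.11 and -0.11) and LAMB1 (-0.0355 and -0.0362) in U87 mg at 8 h and ADAMTS3 in DAOY at 2 h (0.0023 and 0.007). The median line difference of all genes at 0 h moved from 0.05 to 0.12 and 0.13 under these limma fits.

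Samples with the same replicate number did not deviate together in every pair (correlations from -0.18 to -0.05 in DAOY at 2 h). Between the lines these correlations were 0.411, 0.27 and 0.008 at 0 h and 0.156, 0.072 and 0.148 at 2 h. At 8 h they were 0.101, 0.037 and -0.018. Not every sample correlated best with its own number. Whether a replicate number marks a shared batch was not tested. With the replicate number as a block, DAOY at 8 h gave 1 member called, ADAMTS1, and COL27A1 and PLAU no longer passed the FDR (0.0867 and 0.064). The other field comparisons gave 0 calls.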
